A study of Rattus norvegicus with 6 samples.

Results

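Mitochondrially encoded transcripts were examined in bulk RNA-seq of 6 DMBA/MPA-induced mammary tumors of F344 rats, taking every row of the deposited read count table whose symbol starts with Mt-. This rule found 13 rows among 26195 named rows. All 13 carry the symbols of protein-coding genes, and 0 Mt- rows are ribosomal or transfer RNAs, so the results below concern the messenger RNAs only. Tumors 102, 107 and 116 came from older rats, obtained at 19 to 21 months of age and given the carcinogen at 21 to 23 months. Tumors 157, 158 and 167 came from younger rats, obtained at 6 to 8 weeks and given the carcinogen at 4 months. Every rat, in both age groups, carried a subcutaneous 50 mg pellet of medroxyprogesterone acetate (MPA), a progestin released over 90 days, and received 65 mg/kg of the carcinogen DMBA by gavage in sesame oil. No untreated tissue is part of these data. The tumors of younger rats were all those that formed in that group, whereas the tumors of older rats were those with enough tissue. Each tumor gave 1 library. The study counts the sequenced tumors as coming from separate rats, so the spread between libraries is that between rats, with no repeat library per tumor.

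The mitochondrial genome is a small circular DNA held in many copies per cell. It encodes core subunits of respiratory complexes I, III and IV and of ATP synthase, while all other subunits, and every protein needed to copy, transcribe and translate it, come from nuclear genes. Both of its strands are transcribed as long precursors that are cut into single messages, largely at the transfer RNAs that lie between them, and the messages then differ in stability. Mammary epithelium raises its mitochondrial activity in lactation, and tumors can lose or retain oxidative metabolism. In a bulk tumor, a change in the number of cells of a type and a change in RNA per cell cannot be told apart.

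Totals ran from 3508571 to 6525830 counts per tumor, with overlap between the age groups. At this depth 3 counts, taken as the detection floor, correspond to between 0.528 and 1.03 CPM (read counts scaled to library size with TMM factors), for counting error only. Mammary epithelial markers were present in every library, with a summed level of 1625 to 1874 CPM in older and 1933 to 2563 CPM in younger tumors over 6 rows (Krt8, Krt18, Epcam, Cdh1, Elf5 and Krt5). Macrophage markers summed to 197 to 351 CPM in older and 92.9 to 152 CPM in younger tumors over 7 rows. T cell markers (5 rows, from 16.1 to 85.8 against 4.50 to 8.63 CPM) and B and plasma cell markers (5 rows, from 25.8 to 45.9 against 3.87 to 7.21 CPM) also did not overlap. Of the 7 macrophage rows, 3 had all older tumors above all younger ones (background 6.51% of all genes tested), and C1qa was lowest in older tumor 102 (19.2 CPM). In each lymphocyte list only 2 of 5 rows had enough counts to be tested. Cd8a alone was at 74.2 CPM in tumor 107. The epithelial rows did not all go one way, as Elf5 had a log2 fold change of 0.68 and the mean log2 CPM of the list overlapped (7.83 to 8.00 in older and 7.96 to 8.42 in younger tumors). Of the erythroid markers, Hbb was at 33.3 ± 8.95 CPM in older and 63.3 ± 15.5 CPM in younger tumors (SD, n = 3 each) without overlap, while the summed level of the 3 rows overlapped. The part of these cell types in the results below was not tested.

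The 13 Mt- rows together received almost the same number of counts in every tumor. The sums were 295521 (102), 312478 (107) and 285887 (116) in older tumors and 305243 (157), 315982 (158) and 307085 (167) in younger tumors. The highest sum was 1.11 times the lowest, whereas the counts of all other rows ranged from 3213050 in tumor 102 to 6209848 in tumor 158, a ratio of 1.93. The share of all counts that came from Mt- rows was largest in tumors 102 and 167, the libraries with the lowest totals (3508571 and 3768342), and the part of depth in this order was not tested. It was 8.42% (102), 6.59% (107) and 6.23% (116) in older tumors and 5.77% (157), 4.84% (158) and 8.15% (167) in younger tumors. The 95% Wilson intervals ran from 8.39% to 8.45% in tumor 102 and from 4.83% to 4.86% in tumor 158. They cover counting error only, since reads without molecular identifiers are not independent molecules. The groups overlapped. Their means were 7.08% ± 1.18 (SD, n = 3) in older and 6.25% ± 1.71 (SD, n = 3) in younger tumors, a difference of 0.824 percentage points that was smaller than the spread within either group. It was 0.152 points without older tumor 102, 0.118 points without younger tumor 158 and 1.77 points without younger tumor 167.

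**Figure D1:**
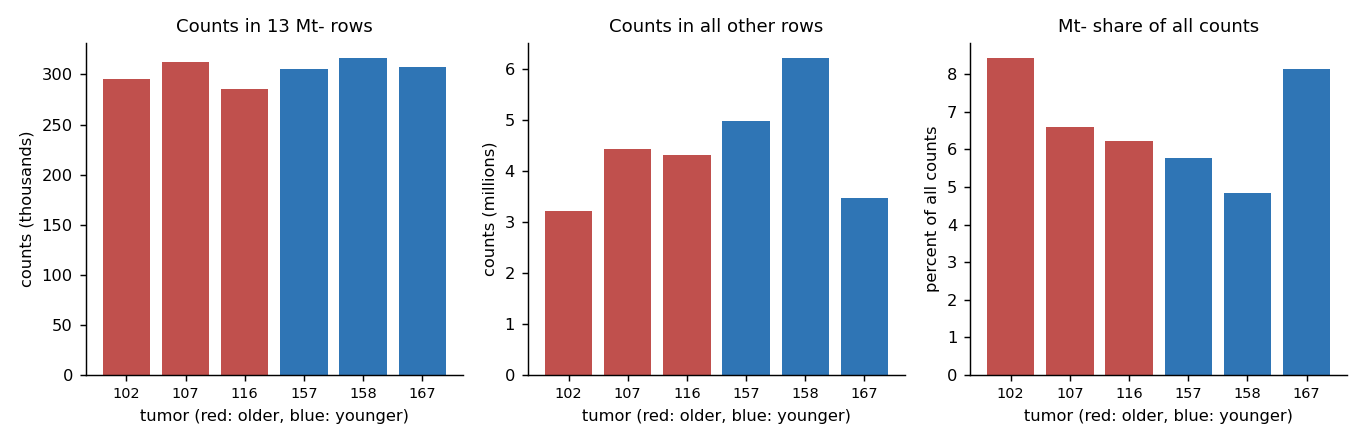
Counts of the 13 Mt- rows, counts of all other rows (each axis starting at 0) and the Mt- share of all counts (percent) in each of the 6 tumors, 1 bar per library. The Mt- sums sit between 285887 and 315982 while the other counts vary 1.93-fold, and the share is highest in tumors 102 and 167.

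Milk protein transcripts did not follow the Mt- share. Milk protein rows took 14.8% of the counts in tumor 158, where the Mt- share was lowest, but also 13.1% in tumor 102, where it was highest, and 0.609% in tumor 167, which had the second highest. With these rows left out of the denominator the Mt- share was 7.89% ± 1.64 (SD, n = 3) in older and 6.61% ± 1.38 (SD, n = 3) in younger tumors, still overlapping. Markers of skeletal muscle, a tissue rich in mitochondria, summed to 8.57 to 75.1 CPM in older and 23.9 to 30.8 CPM in younger tumors over 8 rows, and Ckm, the muscle creatine kinase, had 0 to 4 counts per library. Tumor 102, with the highest Mt- share, had 12 CPM of muscle markers. Its adipocyte markers stood higher, at 188 CPM over 7 rows against 11.3 to 43.0 CPM in the other 5 tumors. Fabp4 alone was at 134 CPM in tumor 102, while Lep was higher in tumor 107 (24.9 CPM) than in tumor 102 (4.11 CPM). Ucp1, which marks brown and beige adipocytes, had 14 counts in tumor 102 (4.80 CPM) and 7 to 20 counts in the others (1.72 to 4.53 CPM). The part of muscle or adipocyte RNA in the Mt- values was not tested.

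Such evenness of the raw counts was less common among other abundant genes. Among 11 Mt- rows with a mean of at least 1000 counts, the highest library exceeded the lowest by at most 1.5-fold for 7 rows. Among 640 other named rows at that level the same held for 48 rows (7.5%), with a median ratio of 2.64 against 1.32 for the Mt- rows. After scaling to CPM this contrast was gone, with 2 of the 11 Mt- rows (18.2%) and 112 of the 640 others (17.5%) within 1.5-fold. Mt-co1, the most counted member, varied least, from 106378 counts in tumor 107 to 121877 in tumor 102. Rows outside the mitochondrial genome reached higher counts than this, up to 540656 for the casein Csn1s1 in tumor 158. Duplicate reads were marked by the authors ahead of counting, but the sources used here do not give whether HTSeq then counted them. The part of this step in the even counts was not tested.

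Not every member was even. Mt-nd1, Mt-atp6 and Mt-nd4l had raw counts that differed 1.98-fold, 1.94-fold and 1.89-fold between tumors, and these were lowest in tumor 102 and highest in tumor 158, the shallowest and the deepest library. Scaled to CPM, the same 3 transcripts were the steadiest members. Mt-atp6, which encodes the proton channel subunit of ATP synthase, was at 1299 (102), 1336 (107), 1217 (116), 1190.0 (157), 1328 (158) and 1129 (167) CPM, a highest to lowest ratio of 1.18. Mt-nd4l, a small core subunit of complex I, was at 100.4 (102), 121 (107), 96.3 (116), 94.2 (157), 99.6 (158) and 98.5 (167) CPM, a ratio of 1.29. For Mt-nd1, another core subunit of complex I, the ratio was 1.46. The other 9 tested members ranged from 1.57-fold for Mt-nd3 and Mt-cyb to 2.21-fold for Mt-co1 and Mt-co2.

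Messages of complex IV, cytochrome c oxidase, which passes electrons to oxygen, stood out in 1 tumor. Mt-co1, the catalytic subunit, was at 41777 (102), 24074 (107) and 21251 (116) CPM in older tumors and at 18881 (157), 20866 (158) and 27077 (167) CPM in younger tumors. Mt-co2, the subunit that accepts electrons from cytochrome c, was at 9371 (102), 6245 (107) and 4974 (116) CPM and at 4237 (157), 4755 (158) and 5657 (167) CPM. Mt-co3, the remaining core subunit, ranged from 7040.0 CPM in tumor 158 to 15385 CPM in tumor 102. In CPM, tumor 102 was highest by a wide margin in all of them, and older tumor 116 lay below younger tumor 167. In raw counts tumors 102 and 107 were closer for Mt-co2 (27339 and 27596) and Mt-co3 (44883 and 42180). Mt-co1 had 121877 counts in tumor 102 and 115838 in tumor 158. Tumor 102 had the lowest library total (3508571) and the lowest TMM factor (0.859). The part of this scaling in the margin was not tested. The log2 fold changes, positive where older tumors were higher, were 0.38 (standard error 0.56) for Mt-co1, 0.49 (standard error 0.43) for Mt-co2 and 0.38 (standard error 0.49) for Mt-co3. Adjusted p was 0.928, 0.856 and 0.915 (edgeR, Benjamini-Hochberg adjusted). Without tumor 102 the values were 0.02 for Mt-co1, 0.19 for Mt-co2 and 0.02 for Mt-co3.

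Complex I, which takes electrons from NADH, has the most mitochondrially encoded subunits, and its 7 messages did not behave alike. Mt-nd4, one of its proton-pumping subunits, was at 6217 (102), 5094 (107) and 3493 (116) CPM in older and 3060 (157), 3385 (158) and 4256 (167) CPM in younger tumors, and tumor 102 was again highest. Its log2 fold change was 0.47 (standard error 0.40, edgeR adjusted p = 0.854). Mt-nd5, another pumping subunit, was at 8333 (102), 7020 (107) and 5441 (116) CPM and at 5558 (157), 4914 (158) and 9117 (167) CPM. Here the highest value was in younger tumor 167, and the same held for Mt-nd6, at 1917 CPM in tumor 167 against 1014 to 1775 CPM elsewhere. Mt-nd5 and Mt-nd6 are encoded on opposite strands of one region, Mt-nd6 being the only protein gene of the light strand, and their counts kept a ratio of 4.07 to 4.84 in all 6 tumors. The sources used here name no stranded kit or counting setting, so reads of Mt-nd6 and antisense reads of the other strand cannot be told apart.

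Mt-nd3, a small subunit of complex I, was the only tested member whose CPM did not overlap between the age groups. It was at 482 (102), 387 (107) and 365 (116) CPM in older tumors and at 307 (157), 314 (158) and 341 (167) CPM in younger tumors, a log2 fold change of 0.36 (standard error 0.24, edgeR adjusted p = 0.797). With 1 of 12 members, this was near the background, since 6.51% of all genes tested were above in every older tumor and 5.58% below. Mt-nd1 was the only member with a negative log2 fold change, -0.07 (standard error 0.37, edgeR adjusted p = 0.981), at 4429 ± 855 CPM (SD, n = 3) in older and 4665 ± 434 CPM (SD, n = 3) in younger tumors, and its sign turned without older tumor 116. Mt-nd2, at 2587 to 4302 CPM, and Mt-cyb, the cytochrome b of complex III, at 4715 to 7414 CPM, also overlapped. The log2 fold changes not yet given were 0.24 (standard error 0.40) for Mt-cyb, 0.14 (standard error 0.35) for Mt-nd6, 0.12 for both Mt-nd2 (standard error 0.38) and Mt-nd4l (standard error 0.21), 0.09 (standard error 0.45) for Mt-nd5 and 0.08 (standard error 0.28) for Mt-atp6.

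Against age, then, the 12 tested Mt- transcripts leaned one way without any passing the test. Log2 fold changes lay between -0.07 for Mt-nd1 and 0.49 for Mt-co2, with 11 above 0 and a median of 0.19, where the median over all 13139 genes tested was -0.004 and 49.6% were above 0. The quasi-likelihood test of edgeR, with a threshold of 0.05 on the adjusted p, called 0 of the 12 members, and 0% of all genes were called. The smallest adjusted p among members was 0.797. With an unadjusted p under 0.05 there were again 0 of 12, whereas 1129 of all genes (8.59%) passed. The Wald test of DESeq2 called 0 of 12 members and 2.48% of all genes, and limma-voom called 0 of both. The members come from shared precursors and share libraries, so they are not independent. The median rested largely on tumor 102, since it was 0.04 without that tumor, 0.10 without younger tumor 157, 0.31 without older tumor 116 and 0.40 without younger tumor 167. With library totals alone, 9 of 12 members were above 0 and Mt-nd5 and Mt-nd2 joined Mt-nd1 below it. Mt-nd6 also changed sign without younger tumor 158.

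**Figure D2:**
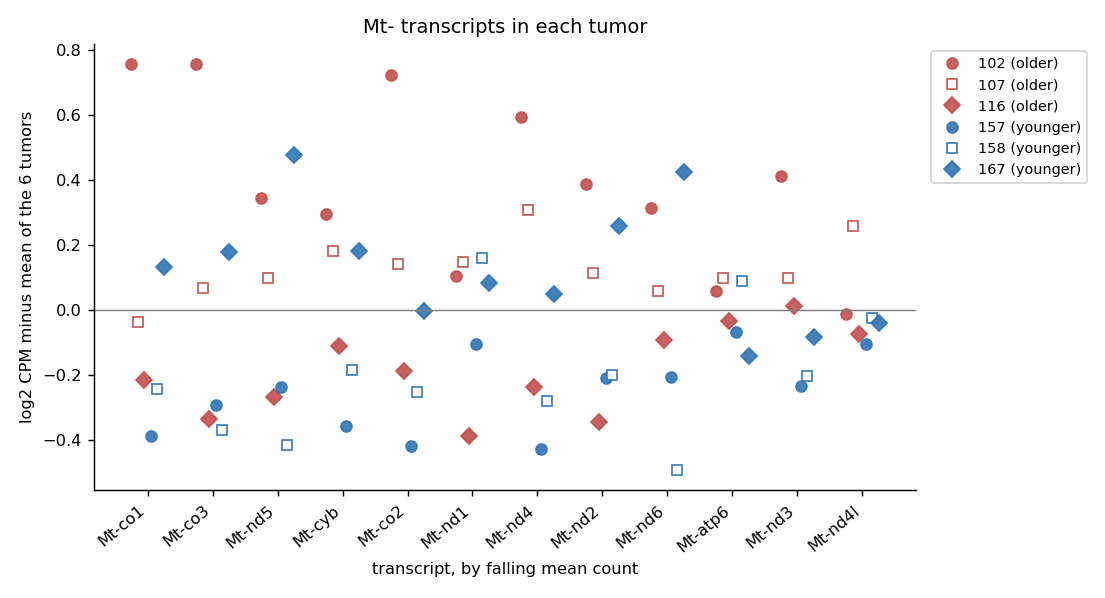
Log2 CPM of each tested Mt- transcript in each tumor, relative to its mean over the 6 tumors, with transcripts ordered by falling mean count and older tumors in red. Tumor 102 is highest for 7 of 12 transcripts, including all 3 of complex IV, while Mt-atp6 and Mt-nd4l show little spread.

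**Figure D3:**
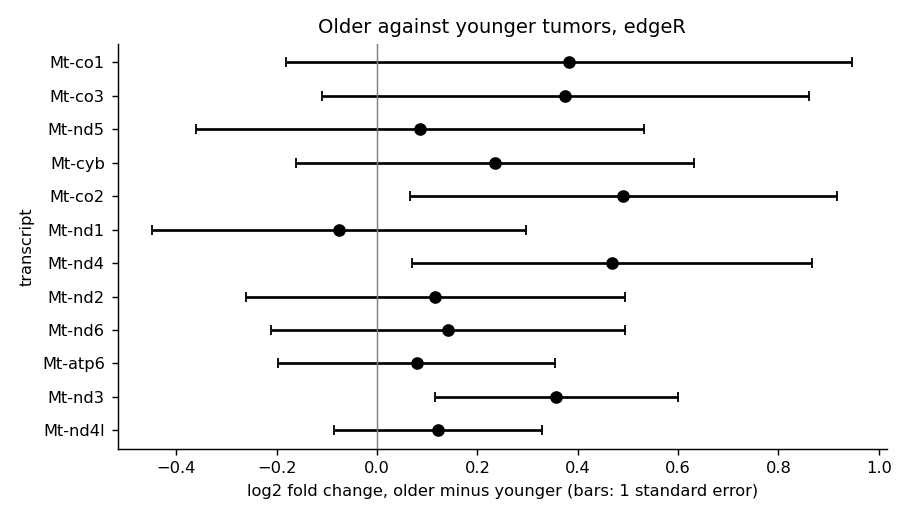
Log2 fold changes of the 12 tested transcripts, older minus younger, as points with bars of 1 standard error from edgeR. The points run from -0.07 for Mt-nd1 to 0.49 for Mt-co2, and no adjusted p is below 0.797.

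Mt-atp8, the second ATP synthase message, was left out of the test because it had 1 (102), 2 (107) and 3 (116) counts in older and 1 (157), 5 (158) and 4 (167) counts in younger tumors. Its gene overlaps that of Mt-atp6, and the gene of Mt-nd4l overlaps that of Mt-nd4. HTSeq by default sets aside reads that touch more than 1 gene, though the mode used is not given in the sources. The counts of these 4 rows are therefore uncertain, and those of Mt-atp8 give no level. The nuclear genome also holds copies of mitochondrial sequence, and how reads matching both were treated is likewise not given, which applies to all 13 rows.

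The make-up of the Mt- pool was described within each tumor as the percent of Mt- counts that each row received. Longer messages give more reads and no transcript lengths were used, so a row is compared only with itself across tumors. Mt-co1 received 41.2% (102), 34.0% (107) and 37.3% (116) of the Mt- counts in older and 35.1% (157), 36.7% (158) and 35.9% (167) in younger tumors. Means were 37.5% ± 3.60 and 35.9% ± 0.76 (SD, n = 3 each), a difference of 1.63 points that became -0.23 points without tumor 102. The 3 complex IV rows together took 65.7% in tumor 102 and 56.4% to 58.6% in the other 5 tumors, and the 7 complex I rows took 25.7% there and 29.4% to 32.4% elsewhere. Thus tumor 102 had both the largest Mt- share of its counts and the Mt- pool most weighted to complex IV.

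Mt-co2 and Mt-nd4 were the rows whose place in the pool separated the age groups. Mt-co2 received 9.25% (102), 8.83% (107) and 8.73% (116) of the Mt- counts in older tumors, all above the 7.89% (157), 8.35% (158) and 7.5% (167) of younger tumors. Mt-nd4 received 6.14% (102), 7.2% (107) and 6.13% (116) against 5.69% (157), 5.95% (158) and 5.64% (167). When all genes tested were divided by the Mt- sum in the same way, 3.42% were above in every older tumor and 5.52% below, against 2 and 0 of the 12 members. This background is not like for like, since the members make up the Mt- sum and other genes do not. It cannot show whether the members separate more often than other genes. Mt-nd1 leaned the other way, from 4.78% to 7.07% in older and 6.33% to 8.84% in younger tumors, with overlap. No test was made of these shares.

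Ratios between pairs of messages showed which of them kept step. Mt-co1 to Mt-co3 stayed between 2.52 and 2.96 in all tumors, and Mt-co1 to Mt-co2 between 3.85 and 4.79. Mt-co1 to Mt-nd1, in contrast, ran from 4.15 in tumor 158 to 8.62 in tumor 102, and Mt-co1 to Mt-atp6 from 15.7 in tumor 158 to 32.2 in tumor 102. Mt-nd1 to Mt-atp6 varied less, between 2.83 and 4.23. Neither of the ratios to Mt-co1 that varied most, 2.08-fold and 2.05-fold, separated the age groups. For Mt-nd1 older tumor 107 (4.82) lay below younger tumor 167 (5.67), and for Mt-atp6 older tumors 107 (18.0) and 116 (17.5) lay below younger tumor 167 (24.0).

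**Figure D4:**
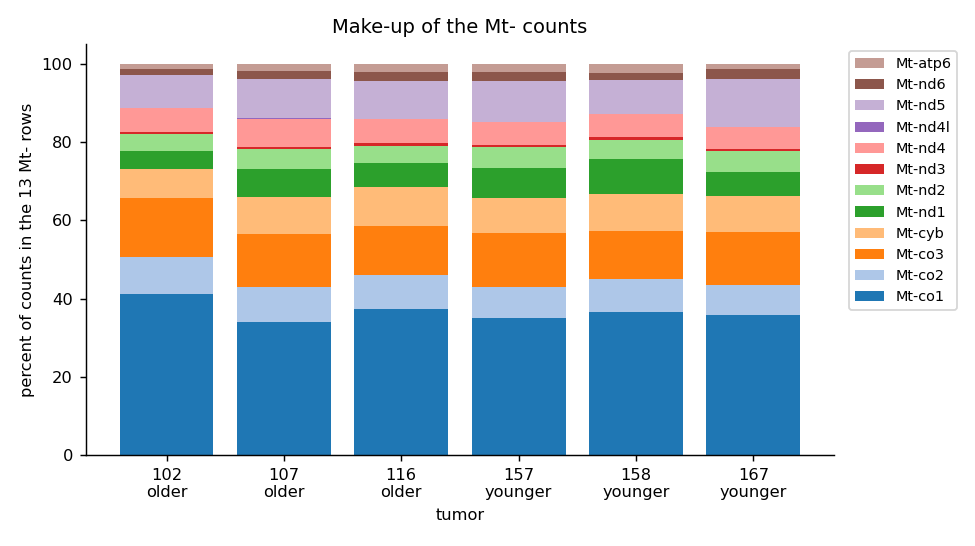
Stacked bars of the percent of Mt- counts received by each Mt- row in each tumor, 1 bar per library (Mt-atp8 is too low to draw). Mt-co1 makes up 34.0% to 41.2%, and the complex IV rows at the base of each bar are largest in tumor 102.

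The nuclear subunits of the same complexes were compared because each complex needs both sets. Of 74 tested rows for nuclear subunits of complexes I, III, IV and ATP synthase (Atp5if1, the ATP synthase inhibitor, is counted with them), 68 had a log2 fold change below 0 and the median was -0.23, opposite in sign to the members' median. None of the 74 passed an adjusted p of 0.05 in edgeR's test (background 0%). In that test 1 had an unadjusted p under 0.05 (background 8.59%), and DESeq2 called 1, Cox4i2 (background 2.48%). In 7 of 74 (9.46%) all older tumors were below all younger ones, where the background is 5.58%. Without tumor 102 the median was -0.15, with 60 of 74 below 0. With all tumors, 6616 of all 13139 genes tested were below 0. The 74 rows share libraries, so they are not independent. Cox6b1 and Atp5mc1 each appear as 2 rows, between which reads may be split.

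Side by side, Mt- and nuclear messages of a complex moved apart most in tumor 102. For complex IV the mean log2 CPM of the 3 Mt- rows was 14.15 (102), 13.46 (107) and 13.16 (116) in older and 13.04 (157), 13.12 (158) and 13.51 (167) in younger tumors. The mean of its 13 tested nuclear rows was 4.46 (102), 4.70 (107) and 4.94 (116) in older tumors, all below the 5.01 (157), 5.21 (158) and 5.12 (167) of younger tumors. Of these 13 nuclear rows, 2 (Cox4i2 and 1 row of Cox6b1) had all older tumors below all younger ones, where the background is 5.58% of all genes tested. Cox4i2 had only 3 or 4 counts in each older tumor, and the separation of the mean without it was not tested. The Mt- rows peaked in the tumor where the nuclear mean was lowest. The gap between both means was 8.89 ± 0.74 in older and 8.11 ± 0.25 in younger tumors (log2 scale, SD, n = 3 each), with overlap, since it was 8.22 in older tumor 116 and 8.39 in younger tumor 167. Complex I showed the same order at its ends, with a gap of 6.76 in tumor 102 and 5.62 in tumor 158 (older 6.28 ± 0.51, younger 5.86 ± 0.23, SD, n = 3 each). For complex III the gap was 7.35 ± 0.54 and 6.79 ± 0.18, and for ATP synthase 4.61 ± 0.35 and 4.21 ± 0.21 (older and younger, SD, n = 3 each), again largest in tumor 102. The groups overlapped for complexes I and III and ATP synthase too. Tumors 102 and 158 were also the libraries with the lowest and the highest totals, and the part of depth in these gaps was not tested.

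**Figure D5:**
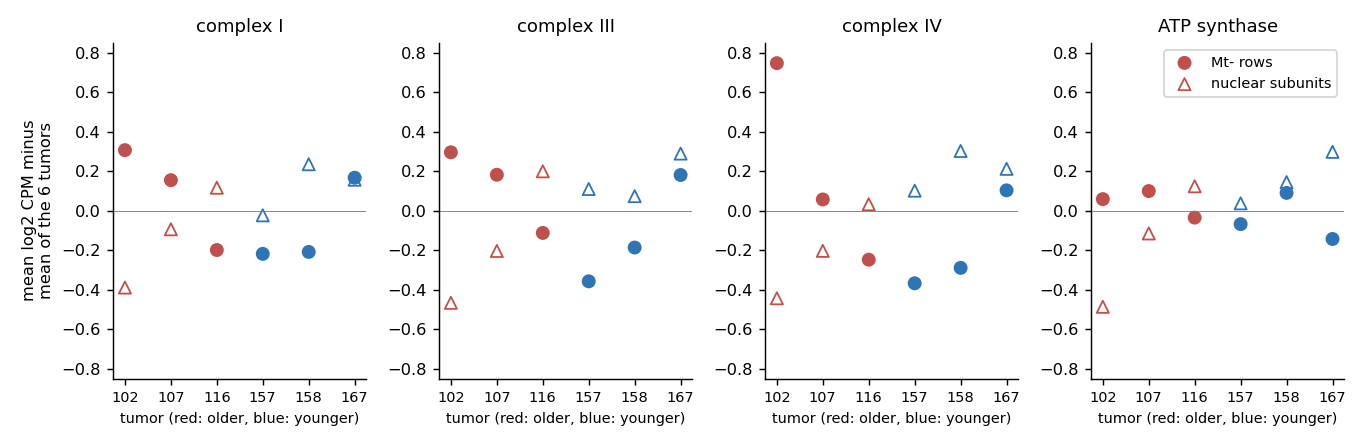
Mean log2 CPM of the tested Mt- rows (filled circles) and nuclear subunit rows (open triangles) of each complex, each relative to its mean over the 6 tumors, with older tumors in red and younger in blue. In tumor 102 the circles lie above 0 and the triangles below 0 in all 4 panels. In complex IV all older triangles are below all younger ones, in a mean that includes Cox4i2, at or near the detection floor in older tumors.

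The genes that copy and transcribe mitochondrial DNA gave no call by age. None of 16 tested genes had an unadjusted p under 0.05 in edgeR's test (background 8.59% of all genes tested). None was called by DESeq2 (background 2.48%), and the median log2 fold change was -0.08. Tfam, which packages mitochondrial DNA and starts transcription, was at 20.0 ± 7.32 CPM (SD, n = 3) in older and 21.9 ± 3.54 CPM (SD, n = 3) in younger tumors. Its level was 23.7 CPM in tumor 102, within the range of the other tumors. For Polrmt, the mitochondrial RNA polymerase, the log2 fold change was -0.18 (standard error 0.34), for Polg, the replicative polymerase, 0.16 (standard error 0.33) and for Twnk, the replicative helicase, -0.19 (standard error 0.28). Top1mt, a mitochondrial topoisomerase, had the smallest p of the list, at 8.70 ± 1.52 CPM in older and 14.4 ± 3.05 CPM in younger tumors (SD, n = 3 each; edgeR adjusted p = 0.636).

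Genes for processing and stability of mitochondrial RNA gave a median log2 fold change of 0.04 over 19 tested genes (-0.09 without tumor 102). None had an unadjusted p under 0.05 in edgeR (background 8.59%). Lrpprc and Slirp form a complex that stabilizes mitochondrial messages. Lrpprc was at 129 ± 24.7 CPM in older and 123 ± 12.3 CPM in younger tumors and Slirp at 28.0 ± 4.26 and 29.1 ± 3.57 CPM (SD, n = 3 each). Lrpprc was highest in tumor 102, at 157 CPM. Fastkd3, a mitochondrial RNA-binding protein, was at 34.3 (102), 23.3 (107) and 26.5 (116) CPM in older and 20.4 (157), 16.9 (158) and 17.7 (167) CPM in younger tumors. These levels did not overlap, with a log2 fold change of 0.61 (standard error 0.27, edgeR adjusted p = 0.611). In 3 of the 19 genes all older tumors were above all younger ones, where the background is 6.51% of all genes tested.

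Regulators of mitochondrial biogenesis had a median log2 fold change of 0.004 over 14 tested genes. Ppargc1a, a coactivator that drives biogenesis in muscle and brown fat, was low, at 3.42 ± 2.09 CPM in older and 3.45 ± 1.36 CPM in younger tumors (SD, n = 3 each). Esrrb, an orphan nuclear receptor, had 11 (102), 230 (107) and 44 (116) counts in older and 8 (157), 4 (158) and 1 (167) counts in younger tumors. Its log2 fold change was 4.67 (standard error 1.12, edgeR adjusted p = 0.315), and the large mean in older tumors came from tumor 107.

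Among nuclear subunits, Cox4i2, an alternative subunit of complex IV known to be induced by low oxygen, had the smallest p. It had 3 (102), 3 (107) and 4 (116) counts in older and 26 (157), 35 (158) and 16 (167) counts in younger tumors, a log2 fold change of -2.55 (standard error 0.51, edgeR adjusted p = 0.263). Older libraries were at or near the detection floor for this gene. In the other subunit lists the smallest p belonged to Ndufa1 of complex I (log2 fold change -0.94, standard error 0.49), Uqcr11 of complex III (-0.38, standard error 0.28), Atp5po of ATP synthase (-0.63, standard error 0.31) and Sdhc of complex II, which has no mitochondrially encoded subunit (-0.24, standard error 0.28). Their edgeR adjusted p lay between 0.668 and 0.903. All 9 complex III rows, all 17 ATP synthase rows, 12 of 13 complex IV rows, 30 of 35 complex I rows and all 4 complex II rows had log2 fold changes below 0. Of all 13139 genes tested, 6616 were below 0. The rows share libraries, so they are not independent.

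The remaining lists gave no call in edgeR (background 0%). Mitochondrial ribosomal proteins, which translate the Mt- messages, had a median log2 fold change of -0.19 over 76 tested rows (-0.04 without tumor 102), and Mrpl4 had the smallest p (-0.72, standard error 0.34, edgeR adjusted p = 0.639). Assembly factors had a median of -0.01 over 32 genes, with Coa6, an assembly factor of complex IV, at 0.54 (standard error 0.32). Genes that track mitochondrial mass had a median of -0.30 over 13 genes (-0.10 without tumor 102). Phb1, an inner membrane scaffold, was at 102 ± 35.6 CPM in older and 202 ± 98.7 CPM in younger tumors (SD, n = 3 each; edgeR adjusted p = 0.607). Chaperones and proteases of the matrix and inner membrane had a median of -0.21 over 12 genes, and Lonp1, the matrix protease, was at -0.64 (standard error 0.30).

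Genes of mitochondrial fusion, fission and mitophagy had a median of 0.03 over 15 genes, with an exception in Mfn1. This outer membrane fusion protein was at 497 (102), 127 (107) and 193 (116) CPM in older and 75.2 (157), 106 (158) and 101 (167) CPM in younger tumors. All older tumors were above all younger ones, which held for 1 of the 15 genes (background 6.51% of all genes tested). The log2 fold change of Mfn1 was 1.53 (standard error 0.50, edgeR adjusted p = 0.415), and tumor 102 was again far above the rest. Over all lists, each row counted once, 275 rows were tested, edgeR called 0 and 3 had an unadjusted p under 0.05, 2 higher (Esrrb and Mfn1) and 1 lower (Cox4i2) in older tumors, a smaller share than the 8.59% of all genes. DESeq2 called 2 of the 275, Esrrb and Cox4i2, also a smaller share than its 2.48% of all genes.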

How the data were processed

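Bulk RNA-seq was available for 6 rat mammary tumors, 3 per age group, grouped by their labels. The authors removed ribosomal RNA (the labels say polyA RNA), checked reads with FastQC 0.11.7, trimmed them with Trimmomatic 0.38, aligned them with STAR 2.7.9a (build mRatBN7.2 in the submitters' processing notes), marked duplicates with Picard 2.18.12 and deposited HTSeq 0.13.5 read counts, without normalization. Read length is 150 bases in the protocol and 100 in the sample labels. The annotation, strand and overlap settings are not given in the sources used here. 0 rows carry an ERCC spike-in name.

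Of 30562 rows, 4367 without a name, holding 2.17% to 3.64% of the counts, stayed out of library sizes and tests but in the denominator of count shares. Columns of per-sample values left unused numbered 0. Older and younger tumors were compared in R 4.3.3 with edgeR 4.0.16 (filterByExpr, TMM, quasi-likelihood test, no covariates, Benjamini-Hochberg over all 13139 genes kept). A prior count of 2 was added for log2 CPM, and each standard error was obtained from the log2 fold change and its F value. Sums, shares, ratios and list means were described without a test. Lists were read from the fit by counts and medians. The code was tested on simulated data.

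Alternatives were other scalings, filters on low counts, DESeq2 1.42.0 (which the study names), limma-voom (limma 3.58.1), other denominators and leaving out each tumor. The fit with unnamed rows and the share over named rows were added after seeing the data. The transcripts and gene lists were chosen with earlier results of these data known. Named genes are every Mt- row, of each pathway list the rows with an unadjusted p under 0.05 (at most the 4 smallest, otherwise the smallest), and Tfam, Polrmt, Polg, Twnk, Lrpprc, Slirp and Ppargc1a. Tumors are named by their label numbers, and p-values rest on the spread between these libraries, 1 per tumor.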

Additional observations from a re-analysis of the deposited data

How the results depend on the processing

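No paired analysis was possible because the age groups share no replicate numbers. The call of 0 Mt- transcripts held under all alternatives run, limma-voom and the fits with 1 tumor left out included. Over all genes, 0 calls held in all of them except DESeq2's Wald test, with 326 calls (219 higher and 107 lower in older tumors), of which 2 were pathway genes (Esrrb, adjusted p = 0.00053, and Cox4i2, adjusted p = 0.0236). The cause was not tested.

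The median log2 fold change of the Mt- transcripts was 0.19, ran from 0.09 to 0.21 with all tumors and from 0.04 to 0.40 with 1 tumor left out. The difference in Mt- share, 0.824 points, ran from 0.824 to 1.28 with other denominators and from 0.118 to 1.77 with 1 tumor left out. The Mt-co1 share of Mt- counts, 1.63 points, was 1.95 without the 4 rows whose genes overlap and ran from -0.23 to 3.37 with 1 tumor left out. With library totals, log2 fold changes turned to -0.044 for Mt-nd5, -0.0027 for Mt-nd2 and -0.023 for Lrpprc.

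With 1 tumor left out, values changed sign for Mt-nd5 (-0.080 to 0.40), Mt-nd2 (-0.070 to 0.28), Mt-nd1 (-0.18 to 0.071), Mt-nd6 (-0.038 to 0.44), Lrpprc (-0.10 to 0.16), Tfam (-0.33 to 0.14), Ppargc1a (-0.62 to 0.23), Slirp (-0.19 to 0.037) and Polg (-0.19 to 0.37). Without tumor 102 the list medians turned to -0.09 for RNA processing, -0.19 for biogenesis regulators, -0.09 for dynamics and mitophagy and 0.12 for assembly factors, and without tumor 167 to 0.01 for replication and transcription. Totals of 3508571 to 6525830 counts limit Mt-atp8, Cox4i2 and Esrrb, which have few counts. The other Mt- transcripts had at least 293 counts in every tumor. The part of depth in their shares and CPM was not tested.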
